A study of Mus musculus with 21 samples.

Results

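The genes described here handle the amino acid arginine. They are argininosuccinate synthase 1 (Ass1), argininosuccinate lyase (Asl), arginase 1 (Arg1), arginase 2 (Arg2), glycine amidinotransferase (Gatm) and ornithine decarboxylase 1 (Odc1). They were picked by symbol as 6 of 23869 genes listed for lung epithelium and of 21170 listed for lung fibroblasts, and all 6 were listed in both. The choice used 1 measured value, the fall of Ass1 in the epithelium from P0.5 to P2. That step is therefore described without a test for all 6 genes. Ass1 is also described without a test wherever the mean of its epithelial P0.5 or P2 libraries is compared. Those libraries still enter the spread behind its other tests, since 1 fit holds all stages.

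The cells came from lungs of C57BL/6 mice that all carried a Col1a2-GFP transgene, in which the promoter of a collagen gene drives a green fluorescent protein and so marks collagen-producing mesenchymal cells. Epithelial cells were sorted as positive for Epcam and negative for CD31, CD45, CD146 and Ter119, which mark endothelial, white blood, perivascular and red cells. The epithelial labels also name absence of GFP at every stage except E18.5. Fibroblasts were negative for the same 4 markers and for Epcam and positive for GFP, so collagen-producing cells with a silent transgene, and other mesenchymal cells, are not represented. There were 2 libraries in each cell type at E18.5 (embryonic day 18.5), P0.5 (postnatal day 0.5), P2, P7 and P28, and 1 fibroblast library at P56, in all 21. The labels name no separate animals, and a p-value here can speak only of the variation between the libraries deposited, part of which may be technical.

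Arginine stands at a branch point of metabolism. Ass1 joins citrulline to aspartate and Asl splits the product into arginine and fumarate. In liver these are steps of the urea cycle, which Arg1 closes by cutting arginine into urea and ornithine. In most other tissues, where the early mitochondrial enzymes of the cycle are scarce, the same pair recycles citrulline into arginine, which feeds nitric oxide synthesis, creatine synthesis (started by Gatm) and, through arginase and Odc1, the polyamines. Arg2 is the mitochondrial arginase. Odc1 makes putrescine from ornithine and is the regulated first step of polyamine synthesis.

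Expression was read with 3'SAGE-seq, which counts short tags cut close to the 3' ends of polyadenylated RNAs. The deposited values are tag counts divided by 1 constant per library, with no correction for length, and are called values here. Depth was 2282124 to 5602529 reads in the epithelial and 2146071 to 5729829 in the fibroblast libraries. A gene with no read may have had up to 3 reads, which is a value of 0.403 to 1.37 in 1 library, and this floor covers counting error only. The alveolar type 2 gene Sftpc was at 3448 to 14481 in the epithelium and at 1.99 to 25.7 in fibroblasts, and the collagen gene Col1a2 at 3.48 to 62.4 and 1241 to 3317. Both sorted types therefore carried these defining transcripts. Not every marker was so separate: Vim, also on the mesenchymal list, had a mean of 2309 in the epithelium at P28. In bulk samples fewer cells of a type and less RNA per cell cannot be told apart.

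The promoters of Ass1 and Odc1 are shown because the results turn on these genes. They are RefSeq windows (GRCm38.p6) from 250 bases before to 50 after the annotated start, 5′ to 3′ on the gene's strand, with capitals for GC boxes (GGGCGG, or CCGCCC where the box lies on the other strand) and for the E-box CACGTG.

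Ass1, chr2:31470020-31470319, plus strand: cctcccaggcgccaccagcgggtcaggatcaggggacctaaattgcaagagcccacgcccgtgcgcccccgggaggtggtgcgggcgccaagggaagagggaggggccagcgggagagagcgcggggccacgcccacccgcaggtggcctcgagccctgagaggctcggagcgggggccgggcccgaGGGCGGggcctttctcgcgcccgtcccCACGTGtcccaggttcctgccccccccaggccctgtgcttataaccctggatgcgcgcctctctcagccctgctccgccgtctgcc

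Odc1, chr12:17544623-17544922, plus strand: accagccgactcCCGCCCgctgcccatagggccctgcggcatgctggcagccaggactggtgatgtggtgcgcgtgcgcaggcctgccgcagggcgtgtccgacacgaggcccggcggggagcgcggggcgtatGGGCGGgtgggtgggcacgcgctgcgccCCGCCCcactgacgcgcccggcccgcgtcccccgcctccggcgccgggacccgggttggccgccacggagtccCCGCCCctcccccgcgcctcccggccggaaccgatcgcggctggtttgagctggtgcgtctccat

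The Ass1 window was 74% G and C and the Odc1 window 78%, against a median of 52.67% over 32851 promoter windows. Ass1 held the E-box, a letter string also found on either strand in 7.15% of all windows, and 1 GC box. Odc1 held 4 GC boxes, a string found in 35.66% of windows. The strings TGACGTCA (both strands, in 1.79% of windows) and TATAAA (gene strand, in 8.319%) were not among these letters in either window. No motif overlapped another. These matches are a description of the letters. Of the 6 genes Gatm also matched a promoter in the table and held none of the 4 strings.

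Ass1, the entry point of citrulline recycling, had the widest range of the 5 genes tested in the epithelium. The gene spans chr2:31470207-31520672 on the plus strand (GRCm38). At E18.5 the 2 epithelial libraries stood at 3138 and 3438, which placed its mean of 3288 ± 212 (SD, n = 2) at rank 44 from the top of all listed genes. At P0.5 they were at 875 and 872, at P2 at 83.0 and 98.5, and at P7 at 52.3 and 53.7. At P28 they were at 227 and 178. No 2 neighbouring stages overlapped in the order E18.5, P0.5, P28, P2, P7, so Ass1 was lowest at P7 and stood higher again at P28.

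The mean ratio of P0.5 to P2 was 9.63, the value behind the choice of genes. The comparisons of E18.5 with P7 and P28 use the mean of neither stage, but they span that step. Their p-values are therefore not independent of the choice. From E18.5 to P7 the means differed 62.0-fold and Ass1 fell by 5.93 on the log2 scale (log2 of value + 1, SE 0.17, limma adjusted p = 7.35e-11). Rank 44 became rank 2449. From P7 to P28 Ass1 rose by 1.90 (SE 0.17, adjusted p = 6.48e-06), and P28 stayed below E18.5 by a log2 change of -4.02 (SE 0.17, adjusted p = 2.26e-09). These 3 calls held in all 19 alternative fits. In the described steps the log2 changes were -1.91 from E18.5 to P0.5, -3.26 from P0.5 to P2 and -0.76 from P2 to P7.

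Cell markers also moved in the epithelial libraries over this course. The summed level of 5 alveolar type 2 genes was 7761 to 8215 at E18.5 and 24376 to 25602 at P28. All 3 club cell genes listed summed to 174.5 to 180.7 at E18.5 and 3452 to 3466 at P28. The 4 listed leukocyte genes summed to 74.6 to 212 at E18.5, 0.560 to 1.31 at P7 and 1096 to 1282 at P28, where most of the sum was Tyrobp and Laptm5. Ptprc, which encodes the CD45 of the sort, was also highest at P28, with a mean of 16.8 against 2.86 or less at the other stages. Other markers were, like Ass1, lower at P7 than at E18.5. The 2 listed ciliated cell genes, led by Foxj1, summed to 167 to 230 at E18.5, 38.5 to 42.5 at P7 and 90.4 to 122 at P28, the same order as Ass1 over these stages. The 6 macrophage genes had that order too, at 78.8 to 197, 12.9 to 25.6 and 68.4 to 74.0. For the 4 endothelial genes the sums were 23.4 to 46.7, 0.560 to 6.16 and 4.63 to 12.4. For the 4 erythroid genes they were 399 to 1462, 27.1 to 154 and 590 to 690. The 5 alveolar type 1 genes summed to 3892 to 4239 at E18.5 and 2628 to 2735 at P7. The mesothelial gene Msln had means of 436 at E18.5, 21.8 at P7 and 2.31 at P28, while Upk3b, Wt1 and Lrrn4 of the same list stayed at 0.973 or less in every library. The part of these markers in the Ass1 course, or in the other epithelial changes described below, was not tested.

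**Figure D1:**
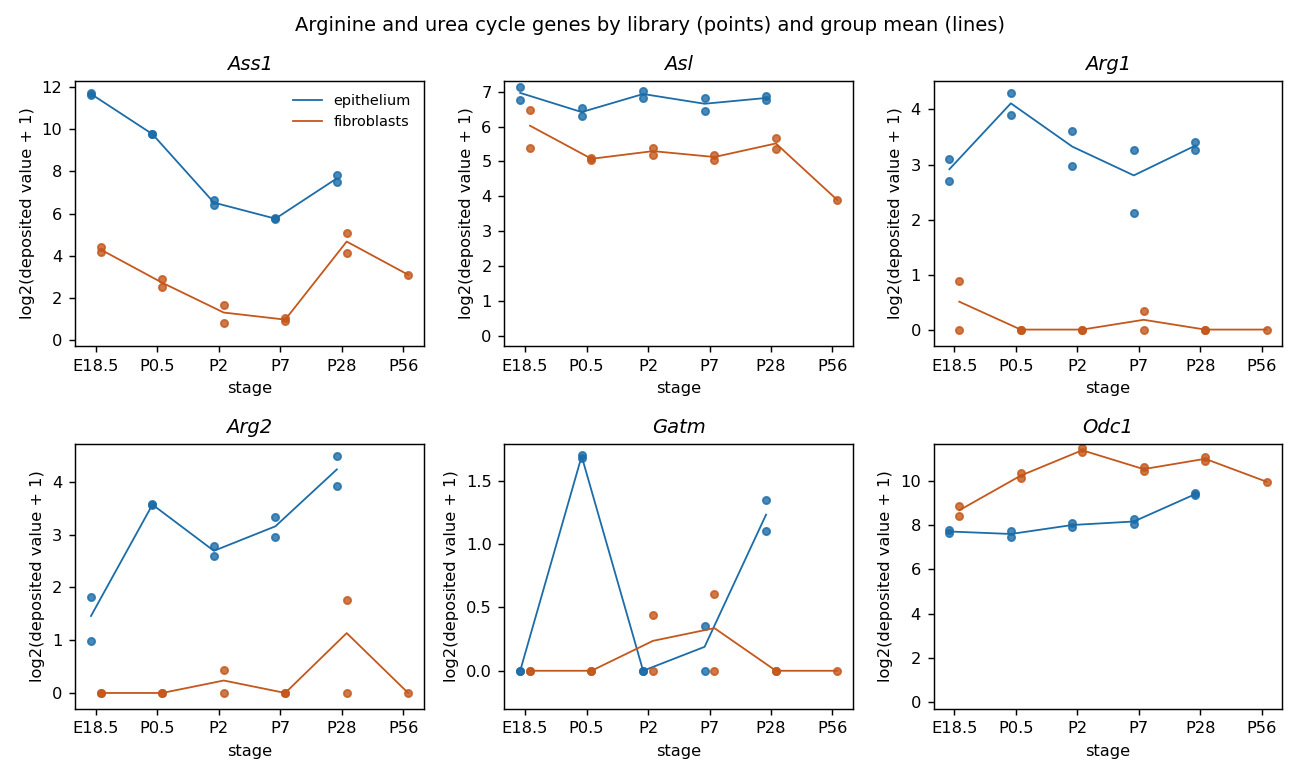
Level of the 6 genes by stage, as log2 of the deposited value + 1, with points for libraries, lines for group means, blue for epithelium and orange for fibroblasts; each panel has its own axis, and the 2 cell types were normalised separately. Ass1 drops in the epithelium from 3288 at E18.5 to 53.0 at P7, and Odc1 rises in fibroblasts from 408 at E18.5 to 2684 at P2.

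In fibroblasts Ass1 was low at every stage, with a total of 352 reads over 11 libraries against 28193 in the 10 epithelial ones. Its values were 19.9 and 17.1 at E18.5, 4.72 and 6.36 at P0.5, and 0.711 and 2.19 at P2. They were 1.05 and 0.835 at P7, 16.5 and 32.3 at P28, and 7.52 at P56. Its lowest mean was at P7, where the libraries overlapped those of P2, and the P28 libraries overlapped those of E18.5.

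Ass1 rose in fibroblasts from P7 to P28 by 3.64 (SE 0.45, adjusted p = 8.11e-06), a call that held in all 19 alternatives. The P7 libraries held 4 and 2 reads, and the lower P28 value was 15.7-fold the higher P7 value. All P2 and P7 values were below 3, the minimum value of the filter on low values. Ass1 was tested only because of its other stages, so its p-values against P2 or P7 give no support. The fall from E18.5 to P0.5 (-1.58, SE 0.45, adjusted p = 0.0217) was lost when any 1 of its 4 libraries was left out (-1.48 and -1.69 without E18.5 replicates 1 and 2, -1.40 and -1.77 without P0.5 replicates 1 and 2, adjusted p = 0.0736 to 0.154), and with no filter on low values (adjusted p = 0.0879). That from P0.5 to P2 (-1.47, adjusted p = 0.0289) was lost without P0.5 replicate 1 (-1.66, adjusted p = 0.0825), P0.5 replicate 2 (-1.29, adjusted p = 0.207) or P2 replicate 1 (-1.02, adjusted p = 0.25), with no filter, with DESeq2, and with a pseudocount of 5 in place of 1 (-0.71, adjusted p = 0.0873). The change from E18.5 to P28 did not pass (0.31, SE 0.45, adjusted p = 0.63).

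Traces of epithelial RNA in fibroblast libraries can be read beside these low values. On joint CPM (reads per 1000000 after scaling all 20 libraries of the 5 shared stages together), fibroblast Ass1 was 0.559% of the epithelial mean at E18.5, 0.635% at P0.5, 1.64% at P2, 1.81% at P7 and 12.7% at P28. The same share for Sftpc was 0.142% at E18.5 and 0.0254% at P28. For Aqp5, a water channel of alveolar type 1 cells, it was 0.961% and 0.265%, and for Ager 1.23% and 0.14%. At E18.5 the Ass1 share therefore lay between those of Sftpc and Aqp5. At P28 it was above those of Sftpc, Aqp5 and Ager, and between those of the type 1 genes Hopx (11.9%) and Pdpn (70.2%). The part of epithelial RNA in the fibroblast Ass1 values was not tested.

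**Figure D2:**
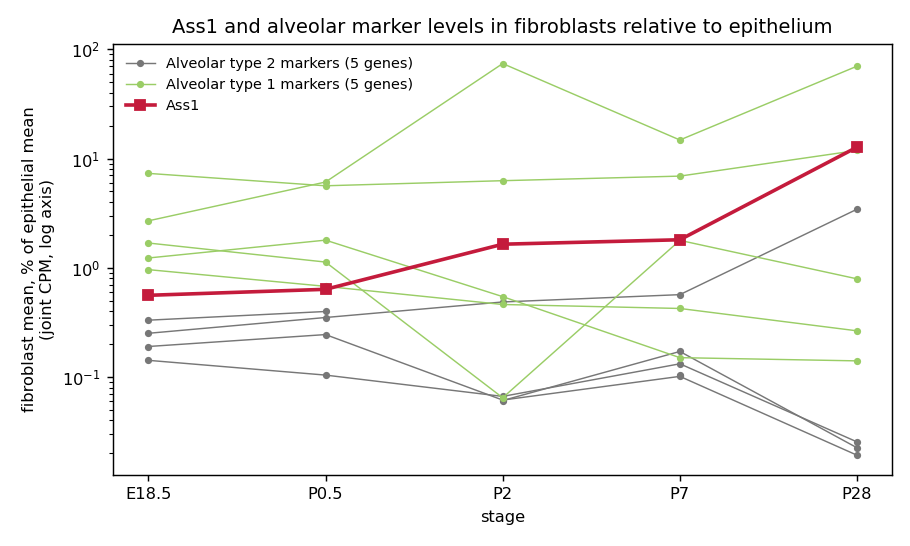
Mean level in fibroblasts as a percentage of the mean level in epithelium (joint CPM, log axis) at 5 stages, for Ass1 (red squares), 5 alveolar type 2 genes (grey) and 5 alveolar type 1 genes (green); a gene with no read in fibroblasts at a stage is left out there. Ass1 sits at 0.559% at E18.5 among the markers and at 12.7% at P28.

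Asl, the next enzyme, had no change past the threshold in the epithelium. It lies at chr5:130011258-130029247 on the minus strand. Its epithelial values were 140.4 and 107.6 at E18.5, 91.1 and 77.8 at P0.5, 129.9 and 112.7 at P2, 86.5 and 113 at P7, and 106.6 and 117.5 at P28. Every stage overlapped its neighbour in the order of means. None of 5 tested changes passed with limma, edgeR or DESeq2, and 1 had an unadjusted p under 0.05. The change from E18.5 to P0.5 was -0.54 (95% interval -0.98 to -0.10, adjusted p = 0.0931), and from E18.5 to P28 it was -0.13 (-0.58 to 0.31, adjusted p = 0.691).

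In fibroblasts Asl stood at 87.6 and 40.5 at E18.5, 2 libraries far apart, and at 32.1 to 49.6 in the 8 libraries from P0.5 to P28. At P56 it was at 13.8, below every other library. It fell from P28 to P56 by 1.62 on the log2 scale (SE 0.36, adjusted p = 0.00222), in a test of 1 library that takes its spread from the other stages. The decrease from E18.5 to P0.5 did not pass (-0.85, SE 0.30, adjusted p = 0.0593), but it did with edgeR (-0.96, adjusted p = 0.0306) and DESeq2 (-0.97, adjusted p = 0.0426) on the recovered reads. Without E18.5 replicate 2 it was -1.40 (adjusted p = 0.00645), and the change from E18.5 to P28 then passed too (-0.96, adjusted p = 0.0224).

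Arg1, the cytosolic arginase known from liver and from alternatively activated macrophages, was a low transcript of the epithelium (chr10:24915221-24927484, minus strand). Its epithelial values were 5.51 and 7.57 at E18.5, 18.7 and 13.9 at P0.5, 6.84 and 11.2 at P2, 8.59 and 3.36 at P7, and 9.65 and 8.64 at P28, from 303 reads in all. Only P0.5 stood clear of the next stage in the order of means. The change from E18.5 to P0.5 did not pass (1.20, SE 0.41, adjusted p = 0.0674), though it passed with edgeR on the recovered reads (1.32, adjusted p = 0.0498) and without P7 replicate 1 (adjusted p = 0.0496) or P7 replicate 2 (adjusted p = 0.0453). The 6 macrophage genes listed summed to 78.8 to 197 at E18.5 and to 24.6 to 26.1 at P0.5, where Arg1 was higher. At E18.5 most of that sum was C1qa, with a mean of 126 there and 11.5 at P0.5. Cd68 (4.65 to 0.141), C1qb (1.75 to 0.325) and Mrc1 (1.90 to 0) were also lower at P0.5. Csf1r went up from 3.69 to 12.7 and Chil3 from 0.162 to 0.692. The 3 listed neutrophil genes went the other way, with sums of 0.324 to 0.947 at E18.5 and 6.98 to 10.7 at P0.5. Their sums were 0.456 to 12.2 at P2, 0 at P7 and 1.73 to 4.25 at P28. The part of macrophages or neutrophils in the Arg1 values was not tested. In fibroblasts Arg1 had 4 reads over 11 libraries, 3 of them in 1 library at E18.5.

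Arg2, the mitochondrial arginase, was another low transcript of the epithelium. Its epithelial values were 0.973 and 2.52 at E18.5, 11.02 and 10.7 at P0.5, 5.01 and 5.93 at P2, 9.15 and 6.71 at P7, and 21.6 and 14.1 at P28, from 286 reads in all. No neighbouring stages overlapped, with E18.5 lowest and P28 highest. Only the later stages reached the filter's minimum value. Arg2 was tested only because of those stages, so its p-values against E18.5 give no support. Arg2 rose from E18.5 to P0.5 by 2.17 (SE 0.39, adjusted p = 0.00281) and from E18.5 to P28 by 2.81 (SE 0.39, adjusted p = 1.42e-04). From E18.5 to P7 it rose by 1.75 (adjusted p = 0.00616), a call lost without E18.5 replicate 1 (1.33, adjusted p = 0.0593) or P7 replicate 1 (1.55, adjusted p = 0.0638). From P7 to P28 the change was 1.06 (adjusted p = 0.138).

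The gene spans chr12:79130777-79156301 on the plus strand, and its 3' end overlaps Vti1b on the other strand. No label or file header says whether the tag counting used strand, so reads of the pair cannot be told apart with certainty. Vti1b was at 87.7 to 165 in the epithelium and 92.1 to 216 in fibroblasts, while Arg2 had 7 reads in all 11 fibroblast libraries, 6 of them in P28 replicate 2. In the epithelium Vti1b, like Arg2, was highest at P28, at 162 to 165 against 98.3 to 109 at E18.5. At P0.5, where Arg2 was above E18.5, Vti1b was at 87.7 to 112.

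Gatm, which makes the precursor of creatine, was barely detected in either cell type (chr2:122594467-122611303, minus strand). In the epithelium it had 0 reads at E18.5 and at P2 and 1 read at P7. At P0.5 the 2 libraries had 6 and 8 reads (mean value 2.23), and at P28 they had 4 each (mean value 1.35). In fibroblasts there were 3 reads over 11 libraries. The gene did not pass the filter on low values (a value of 3 in at least 2 libraries) and was not tested.

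Odc1 moved at most steps in fibroblasts. It spans chr12:17544794-17551505 on the plus strand. Its fibroblast values were 474 and 342 at E18.5, 1306 and 1115 at P0.5, and 2505 and 2863 at P2. They were 1392 and 1576 at P7, 2169 and 1937 at P28, and 999.8 at P56. All stages were separate in the order P2, P28, P7, P0.5, P56, E18.5.

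Odc1 rose in fibroblasts by 1.58 from E18.5 to P0.5 (SE 0.19, adjusted p = 1.36e-05) and by a further 1.15 to P2 (SE 0.19, adjusted p = 3.49e-04). From P2 to P7 it fell by 0.85 (SE 0.19, adjusted p = 0.00891), a call lost without P2 replicate 1 (-0.95, adjusted p = 0.0516), P2 replicate 2 (-0.76, adjusted p = 0.102) or P7 replicate 1 (-0.76, adjusted p = 0.0676), and with no filter (adjusted p = 0.0922). The change from P7 to P28 was 0.47 (adjusted p = 0.0886), and P28 was above E18.5 by 2.35 (SE 0.19, adjusted p = 1.98e-08). From P28 to P56 Odc1 fell by 1.04 (SE 0.23, adjusted p = 0.00219), again with 1 library at P56 and the spread of the other stages. Gm15645, which matches the 3' end of Odc1 closely, stayed between 0.798 and 4.49 in all 21 libraries.

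In the epithelium Odc1 moved late. Its values were 218 and 200.4 at E18.5, 212 and 175 at P0.5, 275 and 239 at P2, 306 and 267 at P7, and 692 and 664 at P28. The P28 libraries stood alone at the top, and the neighbours P7 and P2, and E18.5 and P0.5, overlapped. Odc1 rose from P7 to P28 by 1.24 (SE 0.17, adjusted p = 3.00e-04) and from E18.5 to P28 by 1.69 (SE 0.17, adjusted p = 9.68e-06). The change across birth was -0.12 (95% interval -0.48 to 0.25, adjusted p = 0.705). From E18.5 to P7 it was 0.45 (adjusted p = 0.0809), and 0.58 (adjusted p = 0.0223) when scaled by the sum of reads, which moved the median of all genes from 0.04 to 0.15. Over the step from P7 to P28 the 4 listed leukocyte genes went from sums of 0.560 to 1.31 to sums of 1096 to 1282. Their part in the Odc1 rise was not tested.

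The single P56 fibroblast library has to be read with its scale. From P28 to P56 Asl, Odc1 and Ass1 were all lower, and the median change of all genes was -0.12 as deposited, 0.06 with TMM scaling and 0.26 when scaled by the sum of reads. Asl and Odc1 passed under each scaling. Ass1 passed as deposited (-1.50, adjusted p = 0.043) but not with TMM (-1.31, adjusted p = 0.0753), by the sum of reads (-1.12, adjusted p = 0.124), or without P28 replicate 2 (-1.04, adjusted p = 0.232), P0.5 replicate 1 (-1.50, adjusted p = 0.0566) or P0.5 replicate 2 (-1.50, adjusted p = 0.058). In that library 8 early response genes, among them Fos, Jun and Atf3, summed to 39717 against 18802 to 19442 at P28. Jun alone was at 7376 against 595 to 644, while Fos was lower, at 7209 against 7631 to 8348. The part of this in the P56 values was not tested.

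Counts of calls by step can be set beside those of all genes. In the epithelium 5 of the 6 genes passed the filter, and in fibroblasts 3 (Ass1, Asl and Odc1). Epithelial Arg2 passed through the stages after E18.5, so its calls against E18.5 support nothing. Fibroblast Ass1 passed through stages other than P2 and P7, so its calls against P2 or P7 support nothing either. Those of epithelial Ass1 against E18.5 span the step behind the choice of genes. From E18.5 to P0.5, 1 of 4 genes tested in the epithelium (Arg2) rose, where 14.3% of 12143 genes were called (7.24% higher, 7.09% lower), and in fibroblasts Odc1 rose and Ass1 fell, where 15.4% of 11954 genes were called (8.05% higher, 7.34% lower). From P0.5 to P2, 1 fibroblast gene rose and 1 fell, against a background of 16.9% (9.74% higher, 7.2% lower). From P2 to P7 none of 4 passed in the epithelium (3.71% of genes called, and none of the 4 at an unadjusted p under 0.05, nor by edgeR or DESeq2), and 1 of 3 fell in fibroblasts (6.64%, with 2.36% higher and 4.28% lower). From P7 to P28 the background was 7.28% in the epithelium (4.87% higher, 2.41% lower), where Ass1 and Odc1 rose, and 20.8% in fibroblasts (11.3% higher, 9.49% lower), where Ass1 rose. From E18.5 to P28 it was 24.9% in the epithelium (13.5% higher, 11.3% lower), with Arg2 and Odc1 higher and Ass1 lower. In fibroblasts it was 33.6% (18.7% higher, 14.9% lower), with Odc1 higher. From E18.5 to P7 in the epithelium, where Ass1 fell and Arg2 rose, it was 20.4%. From P28 to P56 in fibroblasts, where Asl and Odc1 fell and the Ass1 call was lost in 8 of 19 alternatives, it was 31.2%, with 19.1% of genes lower. These calls rest on the 1 P56 library. The split into higher and lower depends on the scale. Scaling by the sum of reads moved the share of higher genes among those called from 54.4% to 64.8% for the epithelium from E18.5 to P28, and in fibroblasts from 35.5% to 65.7% for P2 to P7, from 54.4% to 43.1% for P7 to P28 and from 39% to 62.6% for P28 to P56 (51.1% with TMM).

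The levels of these genes differed between epithelium and fibroblasts. Ass1 and Asl were higher in the epithelium and Odc1 was higher in fibroblasts at each stage tested. At E18.5 epithelial Ass1 was at 3067 and 3247 joint CPM against 16.1 and 19.2 in fibroblasts, a log2 difference of 7.41 (SE 0.29, limma adjusted p = 2.22e-14). At P7 the difference was 4.75 (adjusted p = 1.94e-11) and at P28 2.99 (adjusted p = 2.67e-08). At P0.5 and P2 it was 7.07 and 5.23, without a test. Of 13386 genes 38.2% differed at E18.5 (21.3% higher in the epithelium, 16.9% lower), 35.5% at P7 (19.6%, 15.8%) and 38.1% at P28 (19.5%, 18.5%). At P0.5 it was 41% (22%, 19%) and at P2 41% (21.6%, 19.4%).

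Asl was higher in the epithelium by 1.34 over the 5 stages (SE 0.12, adjusted p = 3.20e-09, with 62.4% of genes differing in that comparison, 32.5% higher in the epithelium and 29.9% lower) and by 1.04 to 1.61 at single stages. The E18.5 difference (1.04, adjusted p = 0.00425) was lost without epithelial replicate 1 (0.83, adjusted p = 0.0647) or fibroblast replicate 2 (0.48, adjusted p = 0.178) of that stage. For Arg1 and Arg2, which passed the filter through the epithelium and so had to differ, ratios to a floor are given in place of tests. They cover stages where fibroblasts had no read, with 3 reads over the group as the floor. The epithelial side is a mean with no allowance for its own counting error, so the ratios are not strict bounds. Epithelial Arg1 was 31.7-fold the floor at P0.5, 18.9-fold at P2 and 17.1-fold at P28. Arg2 was 3.44-fold the floor at E18.5, from 3 and 8 reads, 21.2-fold at P0.5 and 16.1-fold at P7. Gatm was 4.35-fold the floor at P0.5, from 6 and 8 reads, and 2.51-fold at P28, from 4 each.

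Odc1 was lower in the epithelium by a log2 difference of -0.93 at E18.5 (SE 0.18, adjusted p = 2.47e-04), -2.64 at P0.5, -3.41 at P2, -2.39 at P7 and -1.67 at P28 (adjusted p = 1.42e-07 or less from P0.5 on). The gap was widest at P2, where fibroblast Odc1 peaked.

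**Figure D3:**
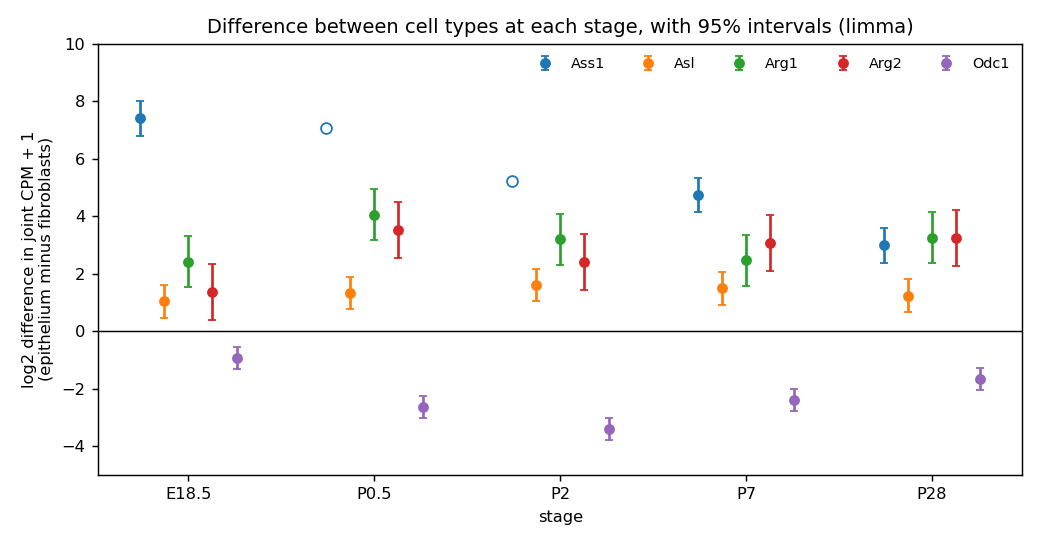
Log2 difference in joint CPM + 1 between epithelium and fibroblasts at 5 stages, with 95% intervals from limma; open circles are Ass1 at P0.5 and P2, which were not tested, and Arg1 and Arg2 had to differ because of the filter. Ass1 declines from 7.41 at E18.5 to 2.99 at P28, and Odc1 lies below 0 at each stage, lowest at P2 (-3.41).

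Whether a change differed between the cell types was tested as an interaction, the epithelial minus the fibroblast log2 change. Odc1 across birth differed by -1.71 (SE 0.25, adjusted p = 7.53e-04), since it rose in fibroblasts and the epithelial change did not pass, where 3.53% of genes had such a difference. Ass1 over E18.5 to P28 differed by -4.42 (adjusted p = 2.24e-07, background 15.1%), with the epithelium falling and the fibroblast change not passing. That span holds the step behind the choice of genes. For P7 to P28 the Ass1 difference was -1.76 (adjusted p = 0.0082, background 8.59%), a larger log2 rise in fibroblasts, and without fibroblast P28 replicate 2 it was -1.29 (adjusted p = 0.0555). A pseudocount of 5 also ended that call (-0.44, adjusted p = 0.436). Fibroblast Ass1 at P7 rested on 6 reads. Odc1 from P2 to P7 differed by 1.02 (adjusted p = 0.0447, background 1.61%), with adjusted p above 0.05 in 17 of 28 alternatives, 14 of which left out 1 library each (0.88 to 1.15, adjusted p = 0.0527 to 0.175). The Arg2 difference across birth did not pass (2.16, SE 0.67, adjusted p = 0.0772), but passed in 3 of 28 alternatives (a pseudocount of 5, and without fibroblast P28 replicate 1 or 2, adjusted p = 0.0156 to 0.0345). Fibroblast Arg2 had no read at either stage, so this test only sets the epithelial change against the floor. No conclusion on the cell types is drawn from it.

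Other genes of arginine metabolism were followed in 6 lists with 68 genes in all, of which 48 were tested in the epithelium and 51 in fibroblasts. Of the urea cycle genes upstream of Ass1, Cps1, which makes carbamoyl phosphate, was at 0 in 9 of 10 epithelial libraries and Otc, which makes citrulline, in all 10. Nitric oxide synthase genes were low, with Nos1, Nos2 and Nos3 at 3.19 or less in every library that listed them.

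Across birth 5 of 48 epithelial pathway genes rose and 2 fell (14.6%, against 14.3% of all genes). Glud1, glutamate dehydrogenase, rose by 1.55 (adjusted p = 9.57e-04), the polyamine acetylating enzyme gene Sat1 by 1.04 and Azin2, an inhibitor of antizyme, by 1.48. Slc7a7, an exporter of cationic amino acids, fell by 2.57 (adjusted p = 0.00159). In fibroblasts 6 of 51 rose and 3 fell, led by Sat1 (1.76, adjusted p = 4.25e-05), Azin1 (1.58, adjusted p = 2.37e-04) and Glud1 (1.17). Azin1 protects the Odc1 protein from antizyme, and its fibroblast values were 8.99 and 9.38 at E18.5 and 31.2 and 27.7 at P0.5.

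From P0.5 to P2, while Ass1 stood about an order of magnitude lower, 6 epithelial pathway genes rose and 3 fell (18.8%, against 8.82% of all genes, 5.13% higher and 3.69% lower). Oat, which links ornithine to glutamate, rose by 0.86 (adjusted p = 0.0156), Gls2 by 2.13, the mitochondrial ornithine carrier gene Slc25a15 by 1.10 and the antizyme gene Oaz2 by 1.49. In fibroblasts 10 rose and 3 fell over the same step (25.5%, against 16.9%). Slc3a2, the shared heavy chain of amino acid transporters, rose by 1.26 (adjusted p = 1.64e-04), the arginine transporter gene Slc7a1 by 2.76 (adjusted p = 0.00126) and the methyltransferase gene Prmt7 by 2.86. Glutamine synthetase Glul fell by 1.75 (adjusted p = 4.34e-05). The arginine transport list had 3 of 5 tested genes higher there.

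From P2 to P7 none of 48 passed with limma, edgeR or DESeq2 in the epithelium (9 at an unadjusted limma p under 0.05), and Slc3a2 (-0.84) and Azin1 (-0.90) fell in fibroblasts. From P7 to P28 Got1, the cytosolic aspartate aminotransferase, rose in the epithelium by 2.72 (adjusted p = 2.67e-05), from 21.5 and 36.4 to 171 and 211. Ddah1, which degrades methylarginines that inhibit nitric oxide synthase, fell by 2.68 in the epithelium (adjusted p = 0.00114) and by 5.14 in fibroblasts (adjusted p = 4.63e-09), where it went from 107.9 and 98.1 to 0.886 and 3.59. In all, 4 of 48 epithelial genes rose and 2 fell (12.5%, against 7.28% of all genes), and 6 of 51 fibroblast genes rose and 3 fell (17.6%, against 20.8%).

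Over the whole course from E18.5 to P28, 11 of 48 epithelial genes were higher and 6 lower (35.4%, against 24.9%), with a median change of 0.12 against 0.03 for all genes. Of ornithine, proline and glutamate metabolism 5 of 12 were higher and none lower. The genes with the smallest adjusted p were Sat1 (1.49), Ddah1 (-3.24), Got1 (2.13) and Oat (1.32). In fibroblasts 11 of 51 were higher and 4 lower (29.4%, against 33.6%), with Sat1 (2.55) and Azin1 (2.35) higher and Ddah1 (-3.31) lower. Between the cell types 37 of 53 differed over the 5 stages (69.8%, against 62.4%), 22 of them higher in the epithelium. Sat1 (1.27), Azin2 (1.63) and Got1 (1.95), all higher in the epithelium, were among the 4 with the smallest adjusted p. The other was mitochondrial creatine kinase Ckmt1, which did not pass the filter in the fibroblast fit and so had to differ.

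**Figure D4:**
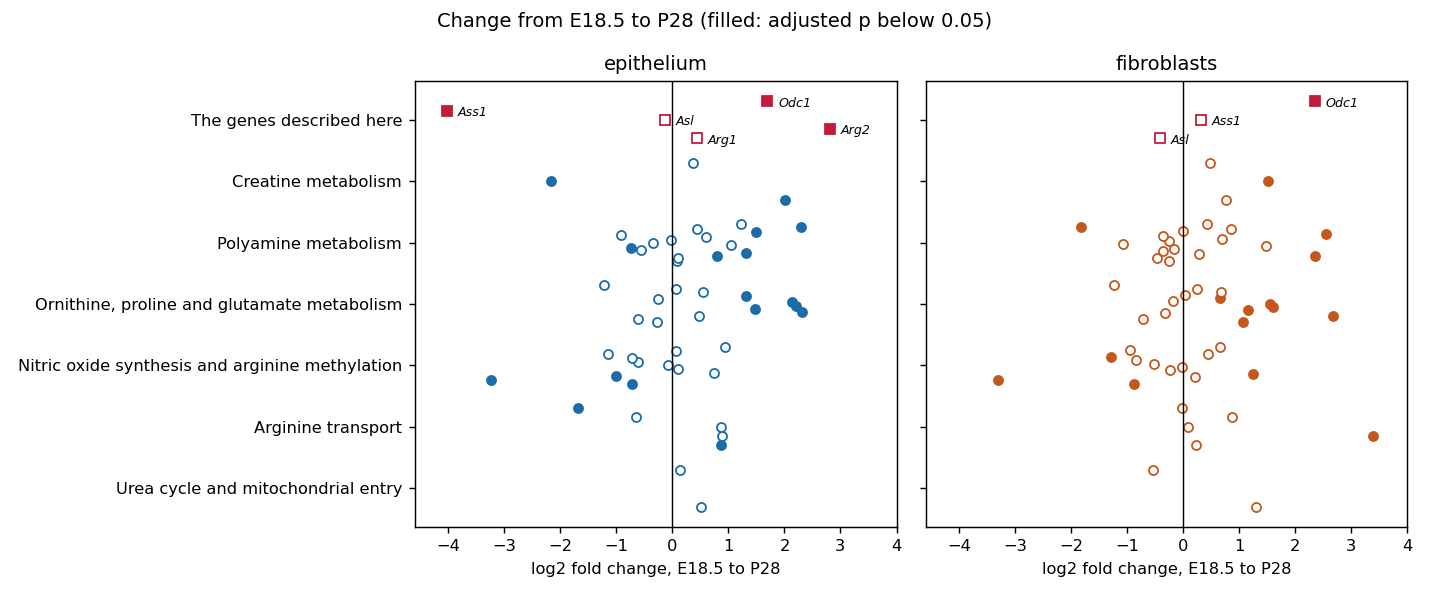
Log2 fold change from E18.5 to P28 in epithelium (left) and fibroblasts (right), 1 circle per tested gene of 6 pathway lists, with squares for the genes described here and filled symbols for adjusted p below 0.05. Epithelial Ass1 (-4.02) lies to the left of every other symbol in its panel, and Odc1 is to the right of 0 in both.

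For the 5 genes tested in the epithelium and the 3 tested in fibroblasts, the genes most like each in profile were ranked by Pearson's r of log2(value + 1) among tested genes that reached a mean of 50. The libraries of a group share their stage, so r mostly follows stage means. For epithelial Ass1 those means include the step behind the choice of genes. For epithelial Ass1, over 10 libraries and 3086 genes, they were Igfbp6 (0.994), Tst (0.987), Sdpr (0.984), Prr18 (0.969) and Dgkd (0.966), and 11 genes exceeded 0.95. Igfbp6, a secreted protein that binds insulin-like growth factors, went from 4527 and 5016 at E18.5 to 503 and 417 at P7. For epithelial Odc1 the first was Arpc1b (0.988), for Arg2 Eif3c (0.964), for Arg1 the histone gene Hist2h2aa1 (0.914) and for Asl Phkb (0.879).

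For fibroblast Odc1, over 11 libraries and 3438 genes, they were Irf1 (0.988), Azin1 (0.975), Icam1 (0.969), Ccl2 (0.961) and Sde2 (0.957), and 7 genes exceeded 0.95. Irf1 encodes an interferon regulatory factor, Icam1 an adhesion molecule and Ccl2 a chemokine. Icam1 was at 121 and 126 at E18.5, 2193 and 1890 at P2 and 436 at P56. Fos, an early response gene, had another order, with 8560 to 8976 at P0.5 against 5268 to 5428 at P2. For fibroblast Ass1 Tgm2 was first (0.966) and for Asl Smek2 (0.906).

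**Figure D5:**
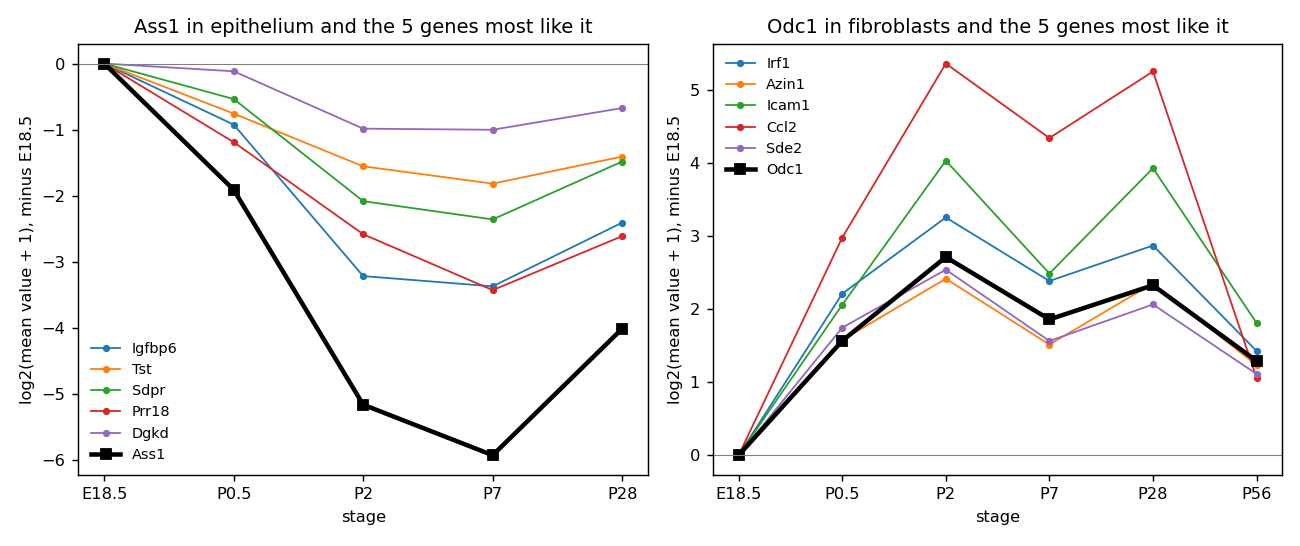
Mean profile of Ass1 in epithelium (left) and Odc1 in fibroblasts (right), black, with the 5 genes of highest Pearson's r, as log2(mean value + 1) minus its E18.5 value. Ass1 drops further than each of its 5 neighbours, while Odc1 and Azin1 run close together from E18.5 to P56.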

How the data were processed

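The members and gene lists were chosen with earlier results of these data known. Per the labels' protocols, poly(A) RNA of sorted cells was amplified and made into 3'SAGE-seq libraries read on an Ion Proton. Bowtie2 2.2.5, R 3.4.0 and mm10 are named in the submitters' processing notes; they name no normalisation. Values deposited by the authors are a signal for every gene, and each was a whole multiple of 1 constant per library (100% of values, tolerance 0.01 of a read), which gave reads back.

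Stage changes were tested with limma 3.58.1 (R 4.3.3, mean-variance trend, two-sided) on log2(value + 1), which understates low genes, for genes at 3 or more in at least 2 libraries, with 1 mean per stage and Benjamini-Hochberg adjustment over all genes tested (threshold 0.05). The P56 library was assumed to vary like the other groups. Cell types, deposited in separately normalised tables, were compared on recovered reads over 20004 shared genes with TMM factors (edgeR 4.0.16), a joint CPM. The fits were tested on simulated data. Alternatives were edgeR and DESeq2 1.42.0 on recovered reads, 2 other scalings, pseudocounts of 0.25 and 5, a minimum of 10, no filter, a replicate block and each library left out. Named pathway genes are up to 4 past the threshold with the smallest adjusted p per comparison; likeness names the 5 highest r. A result on 1 pathway gene is not reported here. Genes named outside these rules, the early response genes among them, were chosen after their values were seen. Gene coordinates are GENCODE (GRCm38) and promoters RefSeq (GRCm38.p6).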

Additional observations from a re-analysis of the deposited data

Results flagged for a closer look

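For 2 of the 5 genes tested (4 or 5 per comparison) the change over time differed between epithelium and fibroblasts by a test of the difference itself (limma interaction term, 20 libraries, 2 per cell type and stage). Of 13386 genes 3.53% had such a difference from E18.5 to P0.5 and 1.61% from P2 to P7. From P7 to P28 it was 8.59% and from E18.5 to P28 15.1%. Odc1 across birth differed by -1.71 on the log2 scale (adjusted p = 7.53e-04), with fibroblast values of 474 and 342 going to 1306 and 1115 and epithelial values of 218 and 200.4 going to 212 and 175. Odc1 from P2 to P7 differed by 1.02 (adjusted p = 0.0447), with both fibroblast libraries lower at P7 than either at P2, and was lost in 17 of 28 alternatives. Ass1 from P7 to P28 differed by -1.76 (adjusted p = 0.0082), higher at P28 in all libraries of both cell types, and was lost with a pseudocount of 5 (-0.44) and without fibroblast P28 replicate 2 (-1.29). Ass1 from E18.5 to P28 differed by -4.42 (adjusted p = 2.24e-07), lower at P28 in both epithelial libraries and overlapping in fibroblasts. That span holds the step behind the choice of genes.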

How the results depend on the processing

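Of 23 tested changes of single genes in the epithelium 8 passed, of 18 in fibroblasts 10, of 27 between cell types 27 and of 18 interactions 4. The 8 include the Arg2 calls against E18.5, and the 10 the fibroblast Ass1 calls against P2 or P7, which the filter favoured. Of the 27 between cell types, 12 are of Arg1 and Arg2, which passed the filter through the epithelium and had to differ, so that count supports nothing. Over the settings other than leaving out a library these counts were 8 to 9, 6 to 11, 26 to 27 and 3 to 6. The fibroblast count of 6 came with no filter on low values; the cause was not tested. Leaving out 1 library at a time gave 7 to 9, 7 to 11, 25 to 27 and 3 to 5. No called value changed direction under any of these settings.

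Replicate numbers did not pair the libraries: the differences between replicates correlated by -0.06 to 0.07 between epithelial groups and -0.04 to 0.04 between fibroblast groups. With a replicate block the counts were 8, 10, 27 and 5. It gained Asl in fibroblasts from E18.5 to P0.5 (adjusted p = 0.0436) and the Odc1 interaction from E18.5 to P28 (-0.74, adjusted p = 0.0403) and lost Ass1 from P28 to P56 (-1.32, adjusted p = 0.0806). With 2 libraries a group, Arg1, Arg2, Gatm and fibroblast Ass1, at few reads, are the least precise values.

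The numbers of all genes called moved by over 1.5 times with no filter, from 1071 to 578 (epithelium, P0.5 to P2), 451 to 211 (epithelium, P2 to P7), 1839 to 1113, 2025 to 1254 and 794 to 359 (fibroblasts, E18.5 to P0.5, P0.5 to P2 and P2 to P7), and with DESeq2 from 216 to 363 for the P2 to P7 interaction. Leaving out 1 library lowered the epithelial counts to as few as 616 of 1740 (E18.5 to P0.5), 109 of 1071 (P0.5 to P2), 140 of 451 (P2 to P7), 406 of 884 (P7 to P28), 1838 of 3020 (E18.5 to P28) and 1389 of 2478 (E18.5 to P7). In fibroblasts the lowest were 676 of 1839, 789 of 2025, 262 of 794 and 1548 of 2491 for the 4 successive steps to P28. For interactions they were 149 of 472, 90 of 216 and 756 of 1150 (E18.5 to P0.5, P2 to P7 and P7 to P28).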

Other observations

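Of 16 polyamine genes tested, 3 (18.8%, against 15.1% of all genes) changed differently between the cell types from E18.5 to P28. Spermine synthase Sms had an interaction of 4.04 (adjusted p = 3.58e-05), with a rise of 2.30 in the epithelium and a fall of 1.83 in fibroblasts. Azin1 had one of -1.64 (adjusted p = 0.00121) and Sat1 one of -1.14 (adjusted p = 0.00608).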
